A study of Mus musculus with 6 samples.

Results

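Cytotoxic effector molecules are the proteins with which killer lymphocytes destroy infected or transformed cells, and 9 genes of this group were examined in spleen cells of miR-144/451 knockout (KO) and wild-type (WT) mice. The genes were taken by name: the granzymes Gzma, Gzmb, Gzmk and Gzmm, perforin (Prf1), the granule-associated Nkg7 and Ctsw, and the secreted or surface effectors Ifng and Fasl. All 9 were found among the 44678 Ensembl genes of the deposited tables, and all 9 had enough counts to be tested with the 13024 genes that passed the filter on low counts.

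CD8+ T cells and NK cells hold perforin and granzymes in secretory granules. When a target cell is bound, perforin opens its membrane and granzymes, which are serine proteases, enter and cleave proteins inside, while Fas ligand on the killer cell can trigger death through the Fas receptor. Interferon gamma, the product of Ifng, acts on neighbouring cells through its own receptor and raises antigen presentation. Resting naive CD8+ T cells hold few of these molecules, and memory T cells and NK cells hold more.

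The study compared 3 libraries from WT mice with 3 libraries from KO mice. Both genotypes were on the C57BL/6J background, and the KO animals lack a genomic segment with both microRNA precursors in every cell, so a difference need not arise in the cells sequenced. According to the sample records the cells were CD8a+ leukocytes from spleen without treatment, and the study's methods name magnetic beads for CD8+ T cells, CD4+ T cells and CD11c+ dendritic cells without tying a sort to the sequencing, which the study introduced with a question about dendritic cells. Each library is shown by its genotype and number, and nothing in the records states that each came from its own animal, so the p-values measure the spread between these 6 libraries. Library totals lay between 8143971 and 8876570 counts, at which 3 counts correspond to between 0.338 and 0.368 CPM, the count scaled to a common library size, a floor for counting error alone. The precursor genes Mir144 and Mir451a were at 0 counts throughout, in WT as in KO, and thus did not serve as a check of the genotype.

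T cell genes were abundant, and the summed level of 12 T cell markers was between 4069 and 5323 CPM in WT and between 2829 and 5010 CPM in KO libraries. Cells other than CD8+ T cells had also contributed RNA. The sum of 7 B cell markers was between 1462 and 2572 CPM in WT and between 1273 and 2943 CPM in KO libraries, and Cd4 was between 28.7 and 75.5 CPM over the 6 libraries. The B cell, neutrophil and monocyte marker sums were high in WT1, KO1 and KO2 and low in WT2, WT3 and KO3 (neutrophil markers 882, 903 and 1071 against 265, 217 and 345 CPM), so that this split crossed the genotypes. In such bulk samples, fewer cells of a type and less RNA per cell cannot be told apart.

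The deleted microRNAs are shown because a microRNA recognises its messenger RNAs mainly through its seed, bases 2 to 8 from the 5′ end, given here in capitals. The mature sequences are those of RefSeq on GRCm38.p6, on the plus strand of chromosome 11.
mmu-miR-144-5p: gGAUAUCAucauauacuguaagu
mmu-miR-144-3p: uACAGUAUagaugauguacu
mmu-miR-451a: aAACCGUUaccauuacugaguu
The strands lie at chr11:78073010-78073032, chr11:78073047-78073066 and chr11:78073186-78073207. The DNA letters complementary to the seeds are TGATATC for miR-144-5p, ATACTGT for miR-144-3p and AACGGTT for miR-451a. None of these 3 words was found in an annotated 3′-UTR of the 9 effector genes (GENCODE M21, GRCm38). Over all 21022 genes with an annotated 3′-UTR, the word for miR-144-3p was found in 12.6%, that for miR-144-5p in 6.56% and that for miR-451a in 1.83%. The 3′-UTRs of the effector genes are short, the longest being 887 nt for Fasl and the longest for Gzma being 67 nt, and the absence of a word says only that these letters are not in these windows.

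None of the 9 genes lies on chromosome 11 with the deleted locus. Gzma and Gzmk are neighbours on the minus strand of chromosome 13, at 113093825 to 113100981 and at 113171608 to 113225908, with 70626 bp between them. Gzmb lies on chromosome 14 (56258838 to 56262260, minus strand). Prf1, Gzmm and Ifng lie far apart on chromosome 10, Nkg7 on chromosome 7, Fasl on chromosome 1 and Ctsw on chromosome 19.

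Levels were compared between genes per kb of annotated exon. Nkg7, a membrane protein of cytotoxic granules, had the highest level with 254.5 ± 62.4 CPM per kb (SD, n = 6 libraries of both genotypes). Gzma followed with 105 ± 49.6 CPM per kb (SD, n = 6) and Ctsw, a cathepsin of the papain family found in cytotoxic lymphocytes, with 94.1 ± 20.6 CPM per kb (SD, n = 6). Among the 12971 tested genes with a known length, these 3 stood at percentiles 98.7, 97.0 and 96.7. Gzmb and Prf1 were next at 28.8 ± 12.1 and 23.9 ± 2.03 CPM per kb (SD, n = 6). Ifng, Gzmk, Gzmm and Fasl were lowest, at means of 16.5, 12.1, 9.25 and 8.05 CPM per kb, and the last was 31.6 times below Nkg7.

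**Figure D1:**
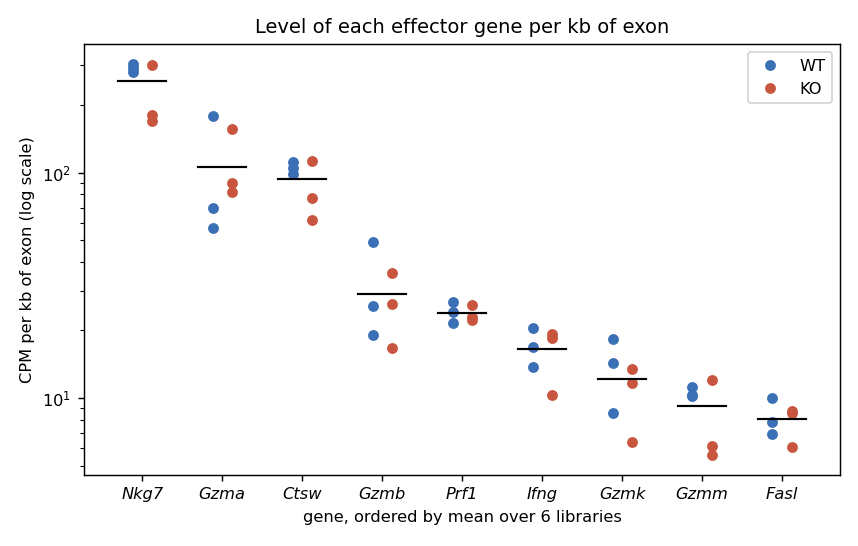
Level of each effector gene in CPM per kb of exon (log axis), ordered by the mean over 6 libraries (black line); each point is 1 library, WT in blue and KO in red. Nkg7, Gzma and Ctsw lie above all others, and among Ifng, Gzmk, Gzmm and Fasl the ranges of neighbours in the order overlap.

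The order was clear only at a few steps. Nkg7 was above Gzma in 6 of 6 libraries although their ranges overlapped, with a lowest Nkg7 value of 169 and a highest Gzma value of 178.5 CPM per kb. Gzma and Ctsw were not separated, each being the higher in 3 libraries. Ctsw was 3.27 times above Gzmb with no overlap of the ranges. Gzmb and Prf1 were again not separated, while Prf1 was above Ifng in 6 of 6 libraries. The ranges of Ifng and Gzmk, of Gzmk and Gzmm and of Gzmm and Fasl overlapped.

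The genotypes were set against each other with the quasi-likelihood test of edgeR, and p-values were adjusted over all 13024 genes. None of the 9 effector genes had an adjusted p-value under 0.05, where 0.0307% of all tested genes did (0.0154% in each direction), and DESeq2 and limma voom called none of the 9 either. None had an unadjusted p-value under 0.05 in edgeR, against 6.25% of all tested genes, or 2.11% when only genes lower in KO are counted. Nkg7 did pass that unadjusted limit in DESeq2, in limma voom, in edgeR without a filter on low counts and in edgeR with the replicate block, with adjusted p-values between 0.814 and 0.911 in these fits, and Gzma passed it without WT replicate 1. Without KO replicate 3, Nkg7, Gzmm and Ctsw passed it. The share of all genes under this limit was not computed for these other fits, and 6.25% belongs to the first edgeR fit. Members also passed it with T cell markers as a covariate and without that library. They are not counted, because the covariate and the genotype cannot be told apart in that fit. The fold change was below 0, that is lower in KO, for 8 of 9 genes, against 49.4% of all tested genes, with a median log2 fold change of -0.26 for the 9 and 0.0030 for all genes. The number below 0 turned on single libraries, being 5 of 9 without WT replicate 1, 6 of 9 without KO replicate 1 and 9 of 9 without WT replicate 3. Each of the 9 had overlapping ranges in WT and KO, where 11.5% of the tested genes had ranges that did not overlap.

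**Figure D2:**
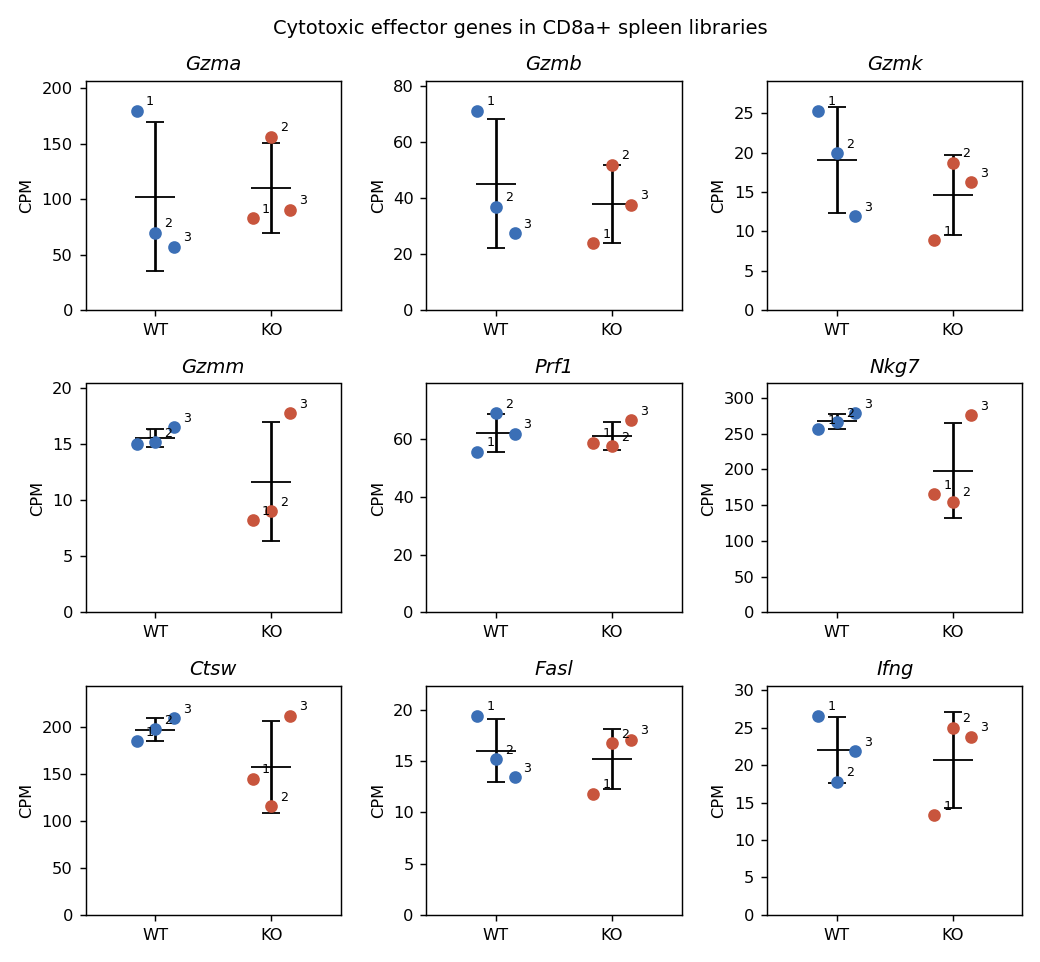
CPM of each effector gene in every library; points are libraries with their number, black bars the mean and SD of 3 libraries, WT in blue and KO in red. For Nkg7, Ctsw and Gzmm the libraries KO1 and KO2 lie below all WT libraries and KO3 lies with or above them, whereas Gzma, Gzmb and Gzmk vary most between libraries of 1 genotype.

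Gzma encodes a granzyme with trypsin-like specificity that is found in NK cells and memory CD8+ T cells. Its level was 179.6, 69.8 and 57.2 CPM in WT1 to WT3 and 82.5, 156 and 90.5 CPM in KO1 to KO3. WT1 and KO2 were high and the other 4 libraries low, and the ranges overlapped. The means were 102 ± 67.3 CPM in WT and 109.8 ± 40.5 CPM in KO (SD, n = 3 each), with a log2 fold change of 0.10, a standard error (SE) of 0.43 and an edgeR adjusted p of 0.967. The 95% interval of this log2 difference ran from -0.89 to 1.09. It was 0.79 with an SE of 0.28 without WT replicate 1 (unadjusted p = 0.0243, edgeR adjusted p = 0.513), and it turned to -0.11 without WT replicate 2, -0.20 without WT replicate 3 and -0.24 without KO replicate 2.

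Gzmb encodes the granzyme that cleaves after aspartate and activates caspases in the target cell. It was at 71.0, 36.9 and 27.4 CPM in WT1 to WT3 and at 23.9, 51.7 and 37.6 CPM in KO1 to KO3. WT1 was again the highest and KO2 the next, and KO1 was the lowest. Its log2 fold change was -0.26 with an SE of 0.37 (edgeR adjusted p = 0.905), and it was 0.23 without WT replicate 1, so that the sign rested on that library.

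Gzmk encodes a further trypsin-like granzyme, known from memory CD8+ T cells. It was at 25.3, 20.0 and 11.9 CPM in WT1 to WT3 and at 8.91, 18.8 and 16.3 CPM in KO1 to KO3. The highest value was that of WT1 and the lowest that of KO1, and the ranges overlapped. Its log2 fold change was -0.38 with an SE of 0.33 (edgeR adjusted p = 0.87), and it was -0.13 without WT replicate 1, -0.14 without KO replicate 1, -0.65 without WT replicate 3 and -0.60 without KO replicate 2.

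Gzmm encodes a granzyme that cleaves after methionine or leucine. It was at 15.1, 15.2 and 16.5 CPM in WT1 to WT3 and at 8.22, 9.02 and 17.8 CPM in KO1 to KO3. The 3 WT libraries lay close together, KO1 and KO2 were well below them, and KO3 was the highest of the 6. Its log2 fold change was -0.42 with an SE of 0.29 (edgeR adjusted p = 0.836). Across the libraries Gzmm thus differed in pattern from the other 3 granzymes.

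The 6 other granzyme genes of mouse, Gzmc, Gzmd, Gzme, Gzmf, Gzmg and Gzmn, belong to the granzyme cluster around Gzmb and were at or near 0. Gzmd, Gzme, Gzmg and Gzmn had 0 counts in each library, Gzmf had 2 counts in KO3 alone and Gzmc had at most 2 counts in a library. All 6 were below the floor of 3 counts in every library and were not tested.

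Prf1 encodes perforin, the pore-forming protein that lets granzymes enter. It was at 55.8, 69.0 and 62.0 CPM in WT1 to WT3 and at 58.9, 57.6 and 66.7 CPM in KO1 to KO3. The 6 values lay within a narrow band and the groups were mixed. Its log2 fold change was -0.029 with an SE of 0.11 (edgeR adjusted p = 0.963), and the 95% interval from -0.28 to 0.22 was the narrowest of the 9 genes.

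Nkg7 encodes a protein of cytotoxic granules that takes part in their release. It was at 256, 266 and 278 CPM in WT1 to WT3 and at 165, 155 and 275 CPM in KO1 to KO3. The WT libraries differed little, KO1 and KO2 lay far below them, and KO3 lay between WT2 and WT3. The means were 267 ± 10.9 CPM in WT and 198 ± 67.0 CPM in KO (SD, n = 3 each), with a log2 fold change of -0.43 and an SE of 0.20 (edgeR adjusted p = 0.809). Ctsw had the same split, with 185, 198 and 209.5 CPM in WT and 145, 116 and 212 CPM in KO libraries. KO1 and KO2 were again the lowest and KO3 the highest of all, and the log2 fold change was -0.32 with an SE of 0.20 (edgeR adjusted p = 0.818).

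Fasl encodes the ligand of the death receptor Fas. It was at 19.4, 15.2 and 13.4 CPM in WT1 to WT3 and at 11.8, 16.7 and 17.1 CPM in KO1 to KO3, with WT1 highest and KO1 lowest. Ifng encodes the cytokine interferon gamma, and it was at 26.6, 17.8 and 21.8 CPM in WT and at 13.3, 25.0 and 23.8 CPM in KO libraries, again with WT1 highest and KO1 lowest. The log2 fold changes were -0.075 with an SE of 0.21 for Fasl and -0.092 with an SE of 0.25 for Ifng (edgeR adjusted p = 0.951 for both). Gm49751, a gene model on the same strand that was not analysed here, covers 25.95% of the exon bases of Ifng, and how reads there were assigned is not given in the sources used here.

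**Figure D3:**
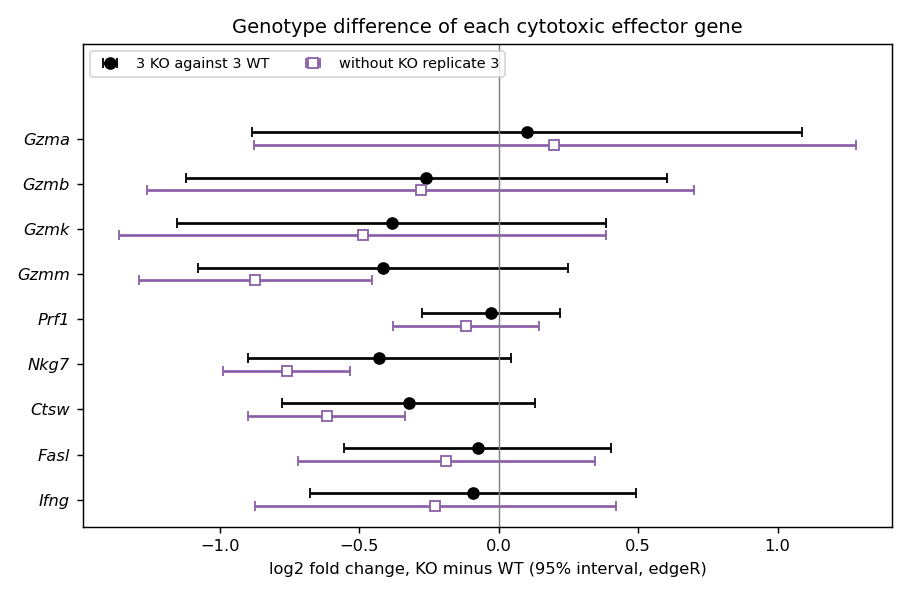
Log2 fold change of KO minus WT with its 95% interval from edgeR's quasi-likelihood test for each effector gene, with all 6 libraries (black circles) and without KO replicate 3 (open squares). All intervals of the full comparison include 0, and without KO replicate 3 those of Gzmm, Nkg7 and Ctsw lie wholly below 0.

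The difference of Nkg7 turned on 1 library. Without KO replicate 3 its log2 fold change was -0.76 with an SE of 0.099 (edgeR adjusted p = 0.0192), so that Nkg7 was then called lower in KO, as the only one of the 9. In that fit 0.707% of 13302 tested genes were called, and 0.0601% were called lower in KO. Gzmm had a log2 fold change of -0.87 (edgeR adjusted p = 0.0981) and Ctsw of -0.62 (edgeR adjusted p = 0.0869) without this library, and neither was called. For these 3 of 9 genes both remaining KO libraries lay below all WT libraries, as for 14.5% of the tested genes, while 31.5% had ranges apart in either direction. No other library left out brought an adjusted p of Nkg7 below 0.552. Without KO replicate 2 the log2 fold changes were nearer to 0, at -0.28 for Nkg7, -0.26 for Gzmm and -0.14 for Ctsw, and without KO replicate 1 they were -0.33, -0.23 and -0.28.

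T cell markers moved with the same libraries. In KO1 and KO2 the summed T cell markers were 3652 and 2829 CPM, below WT1 to WT3 with 4069, 5323 and 5082 CPM, and KO3 was at 5010 CPM. All 12 markers of the list had a fold change below 0 in KO, with a median of -0.34, and none was called (smallest edgeR adjusted p = 0.786). No T cell marker was at 0 in any library. For every member of this list, from Cd3e (301, 378 and 403 CPM in WT and 270.5, 218 and 393 CPM in KO) to Cd8b1 (546, 756 and 703 CPM in WT and 441, 305 and 688 CPM in KO), KO2 was the lowest library.

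Ctsw, Nkg7 and Gzmm were then set against Cd3e, a chain of the T cell receptor complex. The ratio of Ctsw to Cd3e in CPM was 0.616, 0.523 and 0.520 for WT1 to WT3 and 0.536, 0.533 and 0.540 for KO1 to KO3, and the highest was 1.18 times the lowest. For Nkg7 the ratio was 0.853, 0.704 and 0.691 for WT1 to WT3 and 0.610, 0.709 and 0.701 for KO1 to KO3. For Gzmm it was 0.0501, 0.0401 and 0.0410 for WT1 to WT3 and 0.0304, 0.0414 and 0.0452 for KO1 to KO3. WT1 had the highest and KO1 the lowest Nkg7 and Gzmm per Cd3e, so KO2, the library with the fewest T cell transcripts, no longer stood out. Against Cd8a, the marker of the selection, the ratios were less even, the highest being 1.40 times the lowest for Ctsw, 1.54 times for Nkg7 and 1.82 times for Gzmm, where the values for Cd3e were 1.18, 1.40 and 1.65.

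With the mean level of the T cell markers as a covariate over all 6 libraries, the log2 fold change was -0.0046 with an SE of 0.11 for Ctsw, -0.13 with 0.14 for Nkg7 and -0.071 with 0.24 for Gzmm (edgeR adjusted p = 0.998, 0.96 and 0.995). That of Gzmb was -0.63 with an SE of 0.34 in the same fit (edgeR adjusted p = 0.926). With this covariate and without KO replicate 3, an alternative chosen after the data were seen, Nkg7 had a log2 fold change of -0.61 and was not called (edgeR adjusted p = 0.68). There Gzmm was at -0.91 with an SE of 0.34 and Ctsw at -0.26 with an SE of 0.17 (edgeR adjusted p = 0.839 and 0.895). In that fit of 5 libraries Gzmb was at -2.10, Gzmk at -1.82, Gzma at -1.72 and Ifng at -1.35 on the log2 scale, farther from 0 than in any other fit run, and none was called (edgeR adjusted p = 0.13, 0.675, 0.368 and 0.561). Without KO replicate 3 the T cell marker sums of WT and KO libraries do not overlap, so the covariate and the genotype cannot be told apart in that fit and its values are extrapolations, from which nothing is read.

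**Figure D4:**
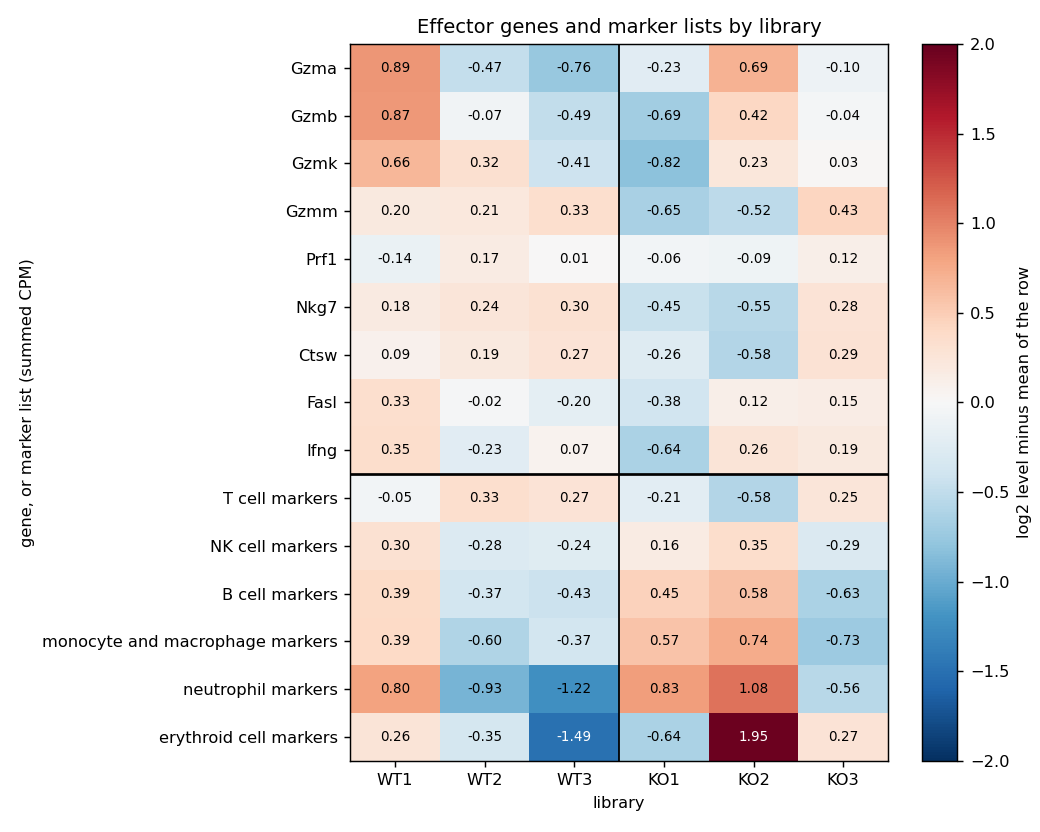
Log2 level of each effector gene (upper 9 rows) and of the summed CPM of marker lists (lower 6 rows) in each library, minus the mean of the row over the 6 libraries; red is above and blue below. Gzmm, Nkg7 and Ctsw are low in KO1 and KO2, as are T cell markers, while Gzma and Gzmb are high in WT1 and KO2, and KO1 is below the mean for all 9 effector genes.

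The 9 genes thus showed more than 1 pattern across the libraries. KO1 was below the gene's own mean for 9 of 9 genes and WT1 above it for 8 of 9, Prf1 being the exception. KO3 was above the mean for 7 of 9, and WT2, WT3 and KO2 each for 5 of 9. The spread within a genotype also differed, with an SD of 0.71 on the log2 scale for Gzma, 0.63 for Gzmb and 0.55 for Gzmk. These SDs were at percentiles 95.1, 92.7 and 89.5 of all tested genes, whereas that of Prf1, 0.13, was at percentile 31.6.

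For each effector gene the genes of most similar pattern were sought among 12158 genes, as the root mean square distance of log2 levels over the 6 libraries after each gene was centred on its own mean. The distances describe 6 points only, and nothing about shared function or control follows from them. Nearest to Gzma were Jchain, which encodes the joining chain of secreted antibodies, at a distance of 0.080, Pros1 at 0.13 and Ighv14-2 at 0.15. Jchain was at 658, 290.3 and 239 CPM in WT and at 333, 569 and 345 CPM in KO libraries. The ratio of Gzma to Jchain stayed between 0.240 and 0.275, which restates the small distance by which Jchain was found. Nearest to Gzmb were Ccl4, a chemokine of activated lymphocytes, at 0.15, Klre1, an NK receptor gene, at 0.15 and Sgo1, a gene of chromosome segregation, at 0.18. Nearest to Gzmk were Chac2 at 0.19, Gm38365 at 0.20 and Gzmb at 0.21.

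Among the other effector genes, named here after their values were seen, Nkg7 was the nearest of all genes to Gzmm, at 0.10. Nearest to Ctsw were Cd96, a receptor of T and NK cells, at 0.047, Trbc1, a T cell receptor constant gene, at 0.055, and Cxcr6, a chemokine receptor of memory T cells, at 0.055. Gzma and Gzmk, though neighbours on the chromosome, were 0.48 apart, and Gzmk ranked 1130 among 12157 genes by its closeness to Gzma.

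**Figure D5:**
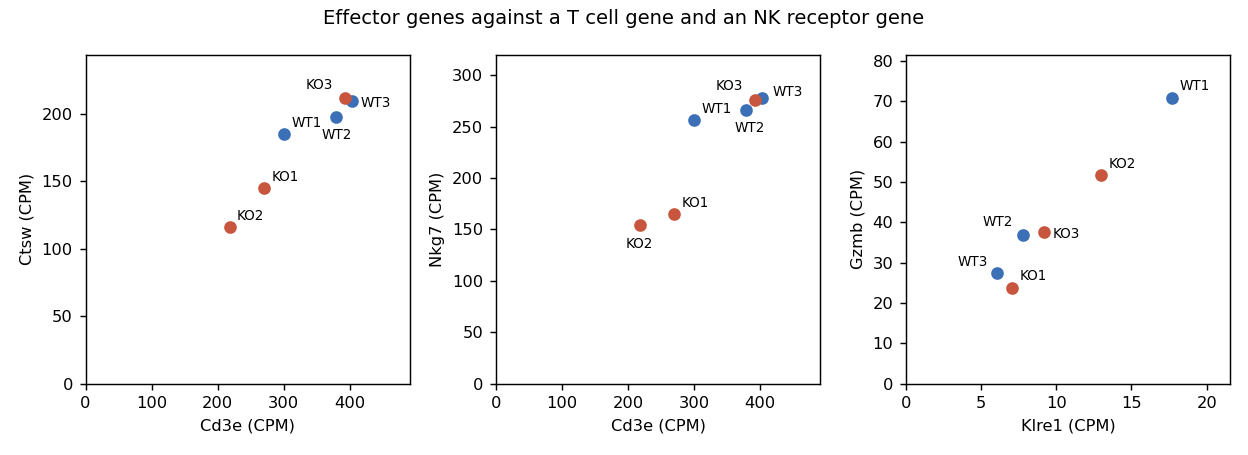
CPM of Ctsw and of Nkg7 against Cd3e and of Gzmb against Klre1, with 1 point per library, WT in blue and KO in red, all axes starting at 0. The ratio of Ctsw to Cd3e varies least, by 1.18 times, and WT1 and KO1 depart most for Nkg7. Gzmb is highest in the libraries with the most Klre1, WT1 and KO2. Klre1 is among the genes nearest in pattern to Gzmb, so these shared high libraries only restate that nearness.

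NK cells hold perforin and granzymes without being T cells, and their markers were therefore read beside the granzymes. The summed level of 12 NK cell markers was 381, 255 and 263 CPM in WT and 345, 394 and 254 CPM in KO libraries, thus high in WT1, KO1 and KO2. In KO 8 of these genes had a higher and 4 a lower level, and none was at 0 in any library. None was called, and the smallest edgeR adjusted p was 0.704, that of Cd7, which was lower in KO. Part of this list is not restricted to NK cells, since Cd7 and Cd160 are also carried by T cells and Tyrobp and Fcer1g by myeloid cells.

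Ncr1, which encodes the NK receptor NKp46, was at 9.93, 2.85 and 2.85 CPM in WT and at 12.7, 14.2 and 3.89 CPM in KO libraries. The ratio of Gzma to Ncr1 was 18.1, 24.5 and 20.0 for WT1 to WT3 and 6.48, 11 and 23.2 for KO1 to KO3, with KO1 and KO2 the lowest. Against Klrb1c, another NK receptor gene, the ratio of Gzma was 10.3, 6.18 and 6.07 for WT1 to WT3 and 4.99, 7.47 and 11.3 for KO1 to KO3, so that KO2 was then above WT2 and WT3 and the order of the libraries depended on the marker. The ratio of Gzmb to Klre1 was 4.01, 4.75 and 4.51 for WT1 to WT3 and 3.38, 3.98 and 4.10 for KO1 to KO3. Klre1 is among the genes nearest in pattern to Gzmb, so this ratio restates that nearness and is no separate reading of NK cells. Klra8, another NK receptor gene, had a log2 fold change of 1.14 with an SE of 0.39 (edgeR adjusted p = 0.728). The log2 fold changes of Klrb1c, Klra4, Klra7, Klra9 and Klrb1f were 0.25, 1.204, 0.33, -0.052 and 0.19, and that of Ncr1 was 0.97. Klre1, Cd160 and Cd7 had -0.11, -0.20 and -0.34, and Tyrobp and Fcer1g had 0.31 and 0.51. None of these genes was called. For Cd7 all KO libraries lay below all WT libraries, as for 5.64% of the tested genes. With the mean NK marker level as a covariate, the log2 fold change of Gzma was -0.25 with an SE of 0.19 (edgeR adjusted p = 0.932), the reverse of its sign without the covariate. In the same fit Gzmb was at -0.52, Gzmm at -0.26, Ctsw at -0.18, Ifng at -0.18 and Fasl at -0.15, and none was called. The part of NK cells in the levels of the granzymes was not tested otherwise.

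Memory and effector CD8+ T cells are the other main source of these molecules, and 9 genes of this state were read. In KO 3 of them had a higher and 6 a lower level, with a median log2 fold change of -0.069, and none was called (smallest edgeR adjusted p = 0.817). Klrg1, a receptor of terminal effector cells, was at 23.1, 16.1 and 8.69 CPM in WT and at 7.52, 25.3 and 12.9 CPM in KO libraries, and like Gzma and Gzmb it was highest in WT1 and KO2. S1pr5 was at 48.95, 22.9 and 25.1 CPM in WT and at 27.55, 42.7 and 22.3 CPM in KO libraries, and Cx3cr1 at 75.7, 36.9 and 34.5 and at 42.4, 52.5 and 32.4 CPM, with WT1 and KO2 again the highest. Which cells these transcripts came from, T cells, NK cells or others, was not tested. Il2rb, Ly6c2 and Cxcr3 were instead highest in KO3, at 466, 542 and 79.0 CPM. The log2 fold changes of Cd44, Itga4 and Zeb2 were 0.33, -0.00067 and 0.47. Of the gamma delta T cell genes Trdc, Tcrg-C1, Tcrg-C2 and Tcrg-C4, none was called, and their sum was between 18.7 and 30.0 CPM in all libraries. All 7 genes of naive T cells had a fold change below 0, with a median of -0.27 and none called, and Igfbp4 and Lef1 had the smallest p-values with log2 fold changes of -0.55 and -0.39.

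Genes that make, load, release or restrain the granules were read from a list of 25, of which 17 were tested and Vamp7 was not analysed here. Of the 17, 11 were higher and 6 lower in KO, with a median log2 fold change of 0.073, and none was called (smallest edgeR adjusted p = 0.817). Srgn, which encodes the proteoglycan that packs granzymes, was at 296 ± 43.0 CPM in WT and 287 ± 38.7 CPM in KO (SD, n = 3 each). Lamp1 and Lamp2, membrane proteins of lysosomes and granules, had log2 fold changes of 0.21 and 0.46 (edgeR adjusted p = 0.817 for both) and were carried by many cell types.

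Receptors and caspases act on the target side of killing. Of 17 genes of death receptors and apoptosis, 10 were higher and 7 lower in KO with a median of 0.053, and none was called. Fas, the receptor of Fas ligand, was at 19.1 ± 4.03 CPM in WT and 16.7 ± 3.07 CPM in KO (SD, n = 3 each). Cflar and Casp8 had the highest levels, with log2 fold changes of 0.055 and -0.10, and Bid, which links caspases to the mitochondria, had 0.17.

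Of 15 genes around interferon gamma, from its receptor to the cytokine receptors that induce it, 7 were higher and 8 lower in KO with a median of -0.015, and none was called (smallest edgeR adjusted p = 0.786). Jak1, a kinase that carries the signal of the receptor, had a log2 fold change of -0.12. Cxcl9, a chemokine induced by interferon gamma, had the smallest p of the list with a log2 fold change of 0.65 and an SE of 0.27 (edgeR adjusted p = 0.786), and Ciita, the activator of MHC class II genes, had 0.39.

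Of 14 transcription factors that govern the cytotoxic program, 7 had a higher and 7 a lower level in KO, with a median of 0.036 and none called (smallest edgeR adjusted p = 0.804). Tbx21, which encodes T-bet, was at 55.7, 49.9 and 56.0 CPM in WT and at 34.7, 48.8 and 50.0 CPM in KO libraries, with KO1 the lowest (log2 fold change -0.27, edgeR adjusted p = 0.817). Id2 had a log2 fold change of 0.22, and Ets1 and Tcf7, the genes with the highest levels, had -0.15 and -0.27. The WT and KO ranges did not overlap for 2 of the 14, Id2 and Ets1, where 11.5% of the tested genes had such ranges.

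Of the 4 chemokines of cytotoxic lymphocytes, Ccl5 was the most abundant, with 576, 385 and 342 CPM in WT and 227, 329.5 and 332.5 CPM in KO libraries. All KO libraries lay below all WT libraries, as for 5.64% of the tested genes, and the log2 fold change was -0.55 with an SE of 0.22 (edgeR adjusted p = 0.786), which did not pass the test. Ccl4, Ccl3 and Xcl1 had log2 fold changes of -0.024, 0.78 and 0.042, and none was called. The median of the 4 genes was 0.0092.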

How the data were processed

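RNA-seq libraries of CD8a+ spleen leukocytes from WT and KO mice, 3 libraries per genotype, were analysed. The tables deposited by the authors hold 1 expected count (an estimate, not always whole) for each Ensembl gene, unscaled for depth or length. This unit was inferred, as between 3527 and 4925 genes per library were not whole. The submitters' processing notes name GRCm38 (mm10), and aligner, counter, annotation and use of strand are not given in the sources used here. The library kit was SMARTER mRNA-Seq. GENCODE M21 on GRCm38 held 98.75% of the 44678 identifiers and gave names, positions, exon lengths and 3′-UTRs.

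Counts were rounded and analysed in R 4.3.3 with edgeR 4.0.16: filterByExpr (minimum count 10, minimum total 15), TMM (factors 0.989 to 1.01), the quasi-likelihood test and Benjamini-Hochberg adjustment at 0.05. CPM used TMM-scaled totals, and log2 CPM a prior count of 2. Standard errors and 95% intervals came from the quasi-likelihood F statistic. Libraries of 1 genotype differed by more than sampling noise (chi-square per degree of freedom 6.17 to 21.8). Alternatives were DESeq2 1.42.0, limma 3.58.1 voom, upper-quartile factors, other filters, the replicate number as a block, T or NK cell markers as covariates, and each library left out. Tested on simulated data of 13024 genes for the KO against WT comparison, the fit recovered 183 of 200 genes changed at a log2 fold change of 2 and 117 of 200 at 1, with 12 and 11 false calls.

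The 9 genes, the lists and the tests were chosen with earlier results of these data known. Named by rule are the 9 effector genes, from each list of pathway genes the 2 of highest level and the 2 of smallest p, all genes of the NK cell, T cell, gamma delta and memory lists (T cell genes mostly by their range), and the 3 genes nearest in pattern to the 3 most variable effector genes. Others are named as examples. A few genes that the rule names are not reported here. Vamp7 of the granule list was not analysed here. The lists of CD4 T cells, plasmacytoid and CD8a+ dendritic cells and erythroid cells had no called gene, and summed between 121 and 189, 204 and 222, 291 and 384, and 235 and 2570 CPM.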

Additional observations from a re-analysis of the deposited data

How the results depend on the processing

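In the comparison of all 6 libraries 4 genes passed the threshold. This count was 56 with DESeq2, run on all 20913 genes with a count and so changing the filter as well as the tool, 12 with edgeR on those 20913 genes, 9 with the replicate block, 9 with NK cell markers and 8 with T cell markers as a covariate, and ran from 2 to 94 when 1 library was left out, the 94 coming without KO replicate 3. Of the 9 effector genes none was called under any alternative run except Nkg7 without KO replicate 3, so that their number ran from 0 to 1. The records do not state whether the replicate numbers pair the libraries. Deviations of same-numbered libraries had correlations across genes of -0.010, -0.20 and 0.11, and those of other WT and KO pairs ran from -0.27 to 0.29. These few values cannot settle whether the libraries are paired. Under the block none of the 9 genes was called.

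Nkg7, Ctsw, Gzmk and Gzmm had a log2 fold change below 0 in every alternative run, but with T cell markers as a covariate those of Ctsw (-0.0046, SE 0.11), Gzmm (-0.071, SE 0.24) and Nkg7 (-0.13, SE 0.14) were within 1 SE of 0. With 1 library left out Nkg7 ran from -0.76 to -0.28, Ctsw from -0.62 to -0.14 and Gzmm from -0.87 to -0.23. Gzma reversed to -0.25 with NK cell markers, -0.44 with T cell markers and -1.72 with T cell markers and without KO replicate 3. All values given here from the last of these fits are extrapolations from which nothing is read, as covariate and genotype cannot be told apart there. With 1 library left out Gzma ran from -0.24 to 0.79, below 0 without WT replicate 2, WT replicate 3 or KO replicate 2. Prf1 reversed to 0.066, 0.11 and 0.14 in the same 3 fits and ran from -0.12 to 0.050, above 0 without WT replicate 2 or KO replicate 2. In the last of these fits Gzmb was at -2.10, Gzmk at -1.82, Ifng at -1.35, Fasl at -0.94, Gzmm at -0.91 and Ctsw at -0.26. With 1 library left out and no covariate, Gzmk ran from -0.65 to -0.13, Gzmb from -0.56 to 0.23, above 0 without WT replicate 1, Ifng from -0.25 to 0.13 and Fasl from -0.20 to 0.086, both above 0 without WT replicate 1 or KO replicate 1. The cause of these changes was not tested. A genotype left with 2 libraries shares its estimate of spread with the other. The depth of about 8143971 to 8876570 counts leaves genes under 3 counts, such as Gzmc, unmeasured.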

Other observations

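CD8a is also carried by a subset of dendritic cells, and 7 genes of these cells were read. In KO 6 had a higher and 1 a lower level, with a median log2 fold change of 0.48, and none was called. Flt3, a receptor needed for dendritic cell development, was at 31.95, 31.8 and 32.5 CPM in WT and at 44.6, 39.3 and 51.1 CPM in KO, so that all KO libraries lay above all WT libraries, where 11.5% of the tested genes had ranges that did not overlap in either direction. Its log2 fold change was 0.49 with an SE of 0.12 (edgeR's quasi-likelihood test, adjusted p = 0.519). Xcr1, a chemokine receptor of the same cells, was at 15.8, 17.7 and 15.4 CPM in WT and at 25.4, 16.5 and 33.7 CPM in KO, with overlapping ranges. Flt3 and Xcr1 were both highest in KO3.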
